A study of Homo sapiens with 6 samples.

Results

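The microRNA processing and Argonaute genes were described in KMS27, a human multiple myeloma cell line, with and without overexpression of HA-TAZ. The 10 members were DROSHA, DGCR8, XPO5, DICER1, TARBP2, PRKRA, AGO1, AGO2, AGO3 and AGO4. They were chosen by gene symbol, and the rule used none of their values, though earlier results of these data were known. Each transcript of the TPM table was matched to its gene in the deposited differential table. TPM (a length-corrected abundance relative to the whole library) was summed over each Ensembl gene. The 10 genes, of 63677 in the table, held 112 transcripts. All 10 passed the filter of a mean TPM of at least 1, as did 22651 genes in all.

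The study title names an axis of Che-1, miR-590-3p and TAZ in multiple myeloma, and the design compared 3 HA-TAZ libraries with 3 libraries of KMS27 labelled wild type. TAZ is the transcriptional co-activator encoded by WWTR1, and HA is a short peptide tag. Total RNA of plasma cell origin was depleted of ribosomal RNA and sequenced in paired ends. The labels name no promoter, vector, clone or time for the overexpression, and the sample titles of the wild type libraries carry the letters HA. The columns of the control group carry a prefix that stands in none of the labels and were assigned to the wild type as the only remaining group. The libraries are called HA-TAZ 1, 2 and 3 and control a, b and c below, and control letters do not correspond to HA-TAZ numbers.

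MicroRNAs are cut from hairpins. DROSHA, a nuclear RNase III enzyme, and its RNA-binding partner DGCR8 form the Microprocessor, which releases the hairpin from the primary transcript. XPO5 carries the hairpin to the cytoplasm together with the small GTPase RAN. DICER1, with the double-stranded RNA binding partners TARBP2 or PRKRA, then cuts the hairpin to a short duplex, and an Argonaute protein takes up the guide strand and silences matching messages. The microRNA named in the title, miR-590-3p, is such a product. Its RefSeq mature sequence is shown with the seed, bases 2 to 8, in capitals, since the seed is the stretch by which an Argonaute pairs with its targets. Mature microRNAs were not measured in these libraries.
hsa-miR-590-3p: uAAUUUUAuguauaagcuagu

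The label of the overexpressing libraries was checked on WWTR1. Its TPM was 293, 306 and 293 in HA-TAZ 1, 2 and 3 and 2.69, 2.22 and 1.69 in control a, b and c. The 10 plasma cell markers fixed for the cell type summed to between 4270 and 4825 TPM in controls and between 2785 and 3217 TPM with HA-TAZ, with 9 of 10 passing the filter. The J chain gene IGJ made up most of that sum. With scaled TPM the median log2 fold change of the 9 markers was −0.05, and 7 of them were not called, while CD38 was called lower and SLAMF7 higher. The 3 T cell markers summed to at most 0.559 TPM in any library, the 3 myeloid markers to at most 2.20, the 3 erythroid markers to at most 2.20 and the 3 stromal or epithelial markers to at most 2.88. In bulk libraries a lower share of cells and less RNA per cell cannot be told apart. The groups also differed in the makeup of their RNA. Protein-coding genes held 46.9% to 54.5% of TPM in controls and 42.2% to 47.4% with HA-TAZ, the signal recognition particle RNA genes RN7SL1 and RN7SL2 held 9.27% to 12.5% and 14.1% to 15.6%, and 23120 to 23807 genes in controls and 20534 to 21395 with HA-TAZ reached 1 TPM.

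TPM was therefore divided by a factor per library, taken as the median over genes of the ratio to the gene's geometric mean. The factors were 0.866, 0.967 and 0.890 in HA-TAZ 1, 2 and 3 and 1.21, 1.09 and 1.06 in control a, b and c, so scaled TPM raises every HA-TAZ value and lowers every control value. The median tested gene had a log2 fold change of −0.03 with scaled TPM and of −0.27 with TPM as deposited. Fold changes below are on the log2(TPM + 1) scale, which understates the change of low genes, and each member should be read against the median of its scale. Whether the shift in RNA makeup has a part in any value below was not tested.

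Among the 10 members, AGO4 fell in HA-TAZ cells, and the other 9 did not pass the test (limma, Benjamini-Hochberg adjusted p under 0.05 over all 22651 genes). No member was called higher. AGO4, an Argonaute that binds guides and is not known as a slicing enzyme, was 31.2% lower in scaled TPM and 44.3% lower in TPM as deposited. In scaled TPM the ratio of HA-TAZ to control means was 0.761 for its coding transcript and 0.688 for the whole gene. The other AGO4 transcripts rest on few reads. The coding transcript was not called in a fit on single transcripts, and leaving out any 1 library ended the call of the gene. Of all tested genes, 2.63% were called lower and 4.67% were called higher, 7.29% in all, so 1 call among 10 members lies close to the background. The median log2 fold change of the members was −0.04 with scaled TPM, beside −0.03 over all tested genes and 0.06 over protein-coding ones. With TPM as deposited it was −0.33, beside −0.27 over all tested genes. The 95% intervals of the members had a median half-width of 0.17 on the log2 scale. The narrowest was that of XPO5, from −0.15 to 0.08, while those of DROSHA, from −0.44 to 0.07, and TARBP2, from 0.05 to 0.77, were wider.

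**Figure D1:**
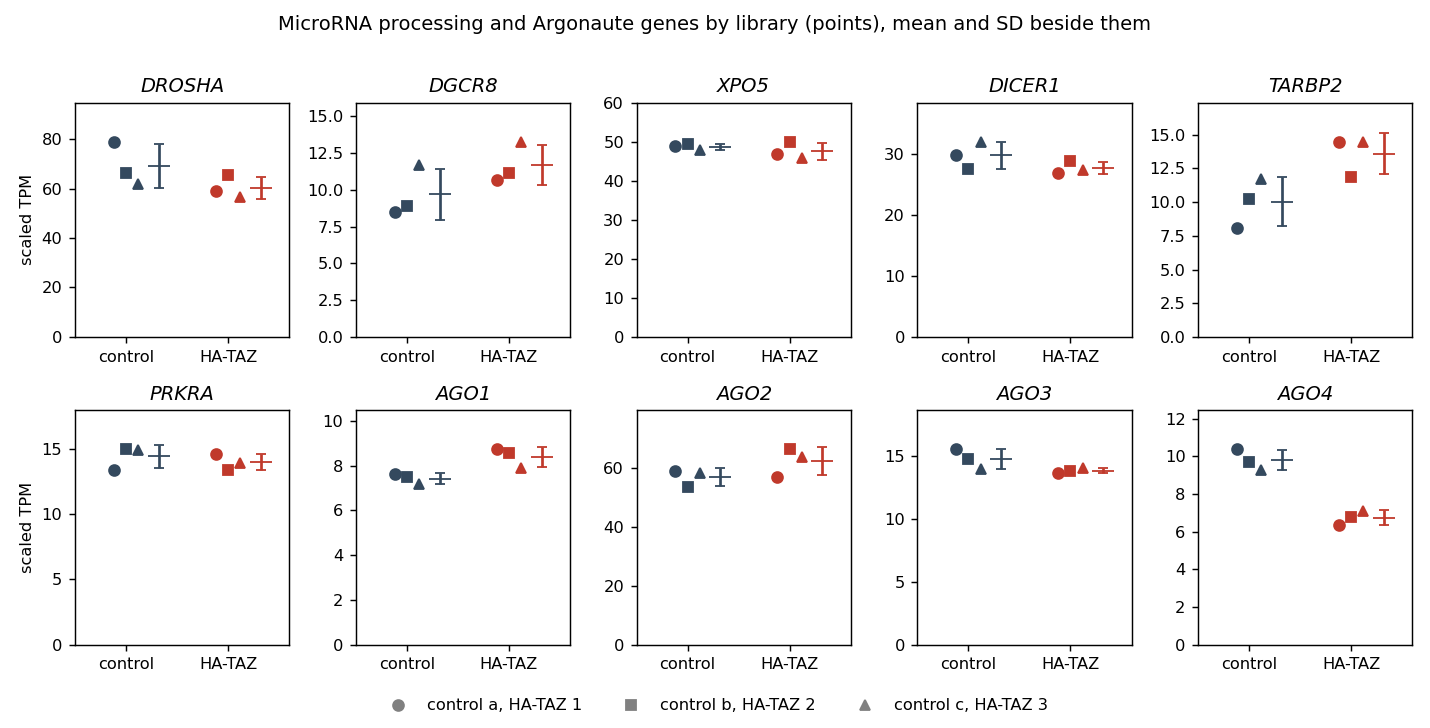
Scaled TPM of the 10 members in each library (vertical axes, each starting at 0), with control libraries in blue and HA-TAZ libraries in red and the mean and SD of 3 libraries beside the points; marker shapes only name libraries. AGO4 lies at 9.29 to 10.4 in controls and at 6.34 to 7.12 with HA-TAZ, while the groups of DROSHA, DGCR8, XPO5, DICER1, PRKRA, AGO2 and AGO3 overlap.

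In control cells the members ranged from 7.42 to 69.05 scaled TPM. DROSHA was the highest at 69.05, followed by AGO2 at 57.0, XPO5 at 48.8 and DICER1 at 29.7. AGO3 at 14.8 and PRKRA at 14.4 overlapped each other, as did TARBP2 at 10.03 with AGO4 at 9.79 and AGO4 with DGCR8 at 9.71. AGO1 was the lowest at 7.42, below DGCR8 in every control library. Every other neighbour in this order was separated in all 3 controls. In HA-TAZ cells DROSHA and AGO2 overlapped, PRKRA overlapped both AGO3 and TARBP2, and AGO4 lay below DGCR8 in every library.

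The Microprocessor genes did not pass the test, and their directions differed. DROSHA had 59.0, 65.4 and 56.7 scaled TPM in HA-TAZ 1, 2 and 3 and 78.9, 66.5 and 61.8 in control a, b and c. Control a lay above the rest, and control c lay below HA-TAZ 2, so the groups overlapped. The log2 fold change of DROSHA was −0.19 (SE 0.10, limma adjusted p = 0.280). With TPM divided by its sum over protein-coding genes and only those genes tested, it was −0.31, with a limma adjusted p of 0.0428. In that fit 15% of genes were called lower. With median-of-ratios factors among protein-coding genes DROSHA was not called. In TPM as deposited DROSHA had 51.1, 63.2 and 50.5 against 95.4, 72.5 and 65.3, with no overlap, as had 43.6% of all tested genes in the same direction.

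DGCR8 had 10.7, 11.2 and 13.3 scaled TPM in HA-TAZ 1, 2 and 3 and 8.50, 8.93 and 11.7 in controls. Control c overlapped the HA-TAZ range. The log2 fold change was 0.25 (SE 0.14, limma adjusted p = 0.273), and −0.022 with TPM as deposited. The ratio of DROSHA to DGCR8, which no scaling of libraries can change, was 5.22 ± 0.832 (SD, n = 3) in HA-TAZ cells and 7.34 ± 2.00 in controls, with an exact two-sided permutation p of 0.3. With 3 libraries against 3 the smallest p this test allows is 0.1. Over the 9 ratios and shares examined here, the smallest adjusted p was 0.15.

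XPO5, the export receptor, was nearly level: 47.0, 50.01 and 45.9 scaled TPM in HA-TAZ libraries and 49.0, 49.4 and 47.8 in controls. The log2 fold change was −0.03 (SE 0.05, limma adjusted p = 0.663), with a 95% interval from −0.15 to 0.08. TPM as deposited gave 40.7, 48.4 and 40.8 against 59.2, 53.9 and 50.6, all HA-TAZ values lower, and a log2 fold change of −0.33 with a limma adjusted p of 0.0644.

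The dicing genes did not pass the test either. DICER1 had 26.9, 28.7 and 27.3 scaled TPM in HA-TAZ libraries and 29.8, 27.5 and 31.9 in controls, and the groups overlapped through control b. Its log2 fold change was −0.10 (SE 0.07, limma adjusted p = 0.348). TARBP2, a DICER1 partner that also binds the HIV TAR element, had 14.5, 11.8 and 14.5 against 8.11, 10.3 and 11.7, so every HA-TAZ library lay above every control, HA-TAZ 2 by a small margin. Its log2 fold change was 0.41 (95% interval 0.05 to 0.77), with a limma p of 0.0313 before and 0.126 after adjustment. An unadjusted p under 0.05 was reached by 2 members, AGO4 and TARBP2, and by 30.7% of all tested genes.

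PRKRA, the other DICER1 partner and an activator of the kinase PKR, had 14.6, 13.4 and 13.9 scaled TPM in HA-TAZ libraries and 13.4, 14.95 and 14.9 in controls, an overlapping pair of groups. Its log2 fold change was −0.04 (SE 0.07, limma adjusted p = 0.717). In TPM as deposited PRKRA had 12.7, 12.9 and 12.4 against 16.2, 16.3 and 15.8, and there it was called lower, with a log2 fold change of −0.32 and a limma adjusted p of 0.0358. On that scale 13.5% of all tested genes were called lower. The PRKRA sum includes 2 transcripts with identical values, ENST00000424699.1 and ENST00000438687.3, each at 0.171 TPM in HA-TAZ cells and 0.990 in controls. Leaving out the latter ended this call, with a log2 fold change of −0.25 and a limma adjusted p of 0.0505, and turned the direction in scaled TPM, to 0.026 (limma adjusted p = 0.841). Whether such a pair holds its reads divided or counted for each cannot be told from TPM. Within the dicing genes, DICER1 over TARBP2 was 2.06 ± 0.319 in HA-TAZ cells and 3.03 ± 0.559 in controls (SD, n = 3). PRKRA over TARBP2 was 1.04 ± 0.0854 and 1.46 ± 0.188. In both ratios every HA-TAZ library lay below every control (exact permutation p = 0.1, adjusted 0.15).

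The Argonautes AGO1, AGO2 and AGO3 did not pass the test, and AGO4 did. AGO2, the Argonaute best known for slicing targets, was the most abundant. It had 57.1, 66.4 and 64.0 scaled TPM in HA-TAZ libraries and 58.9, 53.6 and 58.5 in controls. HA-TAZ 1 lay within the control range. The log2 fold change of AGO2 was 0.13 (SE 0.07, limma adjusted p = 0.282), and −0.17 with TPM as deposited. AGO1 had 8.72, 8.55 and 7.89 against 7.61, 7.48 and 7.16, with every HA-TAZ library above every control. Its log2 fold change was 0.16 (SE 0.07, limma adjusted p = 0.184), and −0.11 with TPM as deposited. AGO3 had 13.7, 13.8 and 14.1 against 15.6, 14.8 and 14.01, overlapping through control c, and its log2 fold change was −0.09 (SE 0.06, limma adjusted p = 0.358).

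AGO4 had 6.34, 6.75 and 7.12 scaled TPM in HA-TAZ 1, 2 and 3 and 10.4, 9.72 and 9.29 in control a, b and c. The groups were far apart relative to their spread, and no library of either group lay between them. The log2 fold change was −0.48 (SE 0.07, 95% interval −0.66 to −0.30, limma adjusted p = 0.0295), lower in 3 of 3 HA-TAZ libraries. In TPM as deposited AGO4 had 5.49, 6.53 and 6.33 against 12.5, 10.6 and 9.82, with a log2 fold change of −0.75 and a limma adjusted p of 0.0281. Leaving out any of the 6 libraries kept the log2 fold change of AGO4 between −0.51 and −0.44 but ended the call, with limma adjusted p from 0.0566 without control c to 0.110 without HA-TAZ 1.

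**Figure D2:**
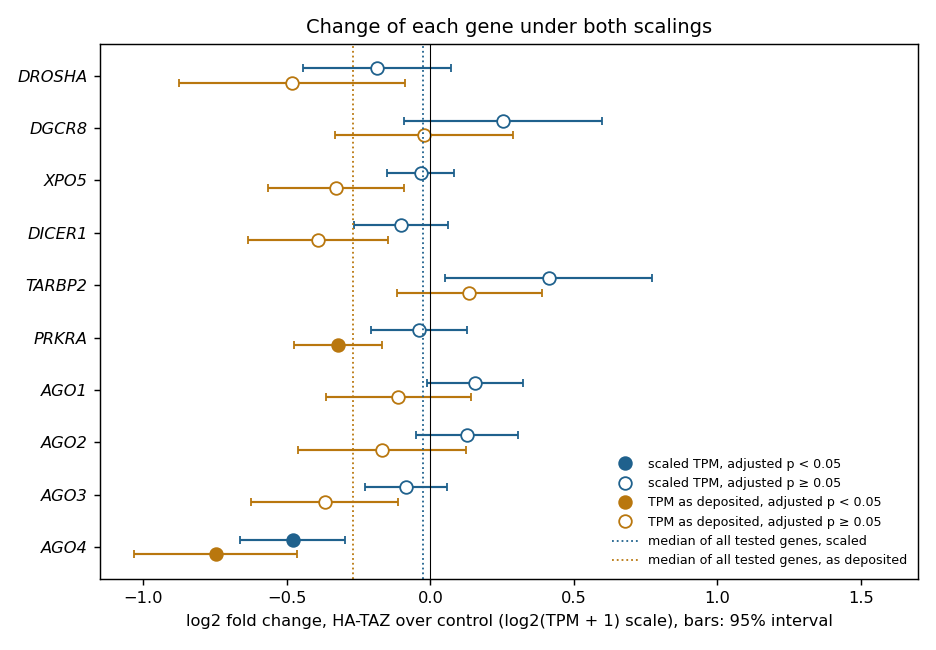
Log2 fold change of each member, HA-TAZ over control, on the log2(TPM + 1) scale (horizontal axis) with 95% intervals from limma, for scaled TPM (blue) and TPM as deposited (orange); filled points passed an adjusted p of 0.05 and dotted lines mark the medians of all tested genes, −0.03 and −0.27. AGO4 is filled on both scales, and PRKRA only with TPM as deposited, where leaving out 1 of its 2 identical transcripts gives −0.25 and an adjusted p of 0.0505.

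In scaled TPM the groups did not overlap for 3 members, higher for TARBP2 and AGO1 and lower for AGO4. Over all tested genes 20.2% were higher and 18.3% lower without overlap, 38.5% in all, so the members' count lies near the background. In TPM as deposited 6 members were lower without overlap and none higher, where all tested genes gave 43.6% lower and 4.41% higher.

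Library scaling cannot change the makeup of the Argonaute transcripts. In that makeup the AGO4 and AGO2 shares did not overlap between the groups, though neither passed the exact test after adjustment. AGO4 held 7.38%, 7.07% and 7.65% of the summed AGO1 to AGO4 TPM in HA-TAZ 1, 2 and 3 and 11.2%, 11.3% and 10.4% in controls. The means were 7.37% ± 0.290 and 10.997% ± 0.489 (SD, n = 3), with an exact permutation p of 0.1, the smallest possible, and 0.15 after adjustment. AGO2 held 68.3% ± 1.55 in HA-TAZ cells and 64.0% ± 1.59 in controls, again without overlap. The shares of AGO1, 9.19% and 8.34%, and of AGO3, 15.2% and 16.6%, overlapped (exact permutation p = 0.2 for each). Relative to single Argonautes, AGO4 over AGO1 was 0.806 ± 0.0888 against 1.32 ± 0.0362, and AGO4 over AGO3 was 0.486 ± 0.0214 against 0.662 ± 0.00465 (SD, n = 3). The summed scaled TPM of the Argonautes was 91.5 ± 5.01 in HA-TAZ cells and 89.0 ± 3.41 in controls, and the groups overlapped.

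**Figure D3:**
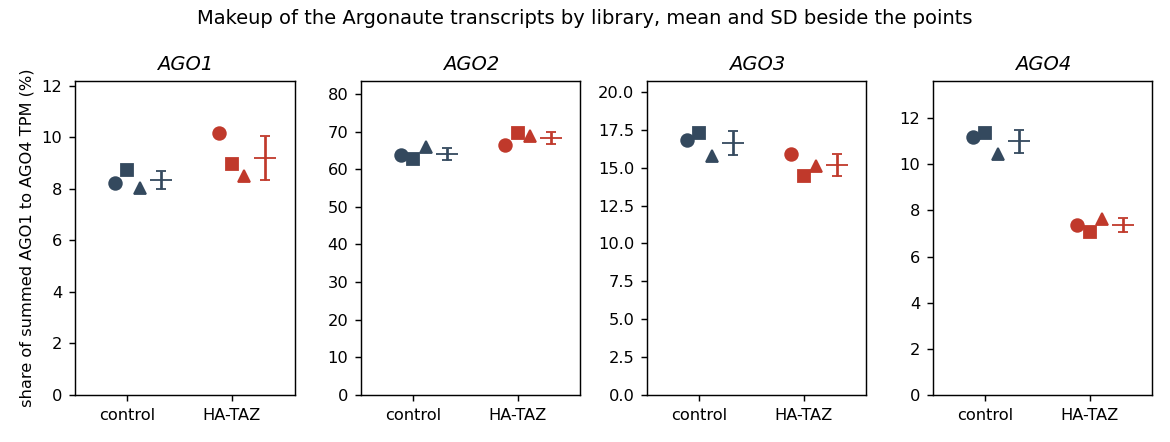
Share of each Argonaute gene in the summed AGO1 to AGO4 TPM (vertical axes in percent, starting at 0) in each library, with the mean and SD of 3 libraries beside the points. AGO4 lies at 10.4% to 11.3% in controls and at 7.07% to 7.65% with HA-TAZ.

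AGO4, AGO1 and AGO3 neighbour each other on chromosome 1, on the same strand. Their promoters are shown because these neighbours had different values in the same libraries: only AGO4 was called. The windows are the 250 bases before each start in RefSeq on GRCh38.p14, plus strand, with GC boxes, GGGCGG or CCGCCC, in capitals.
AGO4, chr1:35807766-35808015: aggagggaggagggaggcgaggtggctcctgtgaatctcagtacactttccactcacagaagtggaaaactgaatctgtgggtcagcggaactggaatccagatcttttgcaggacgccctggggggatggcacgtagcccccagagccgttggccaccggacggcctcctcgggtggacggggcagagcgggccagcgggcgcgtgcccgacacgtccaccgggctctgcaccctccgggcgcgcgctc
AGO1, chr1:35882959-35883208: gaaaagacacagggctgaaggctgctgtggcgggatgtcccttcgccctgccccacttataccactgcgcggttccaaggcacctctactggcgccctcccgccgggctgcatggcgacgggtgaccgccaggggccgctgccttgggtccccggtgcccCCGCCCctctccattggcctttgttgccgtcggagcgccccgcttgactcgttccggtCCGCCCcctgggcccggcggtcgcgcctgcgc
AGO3, chr1:35930855-35931104: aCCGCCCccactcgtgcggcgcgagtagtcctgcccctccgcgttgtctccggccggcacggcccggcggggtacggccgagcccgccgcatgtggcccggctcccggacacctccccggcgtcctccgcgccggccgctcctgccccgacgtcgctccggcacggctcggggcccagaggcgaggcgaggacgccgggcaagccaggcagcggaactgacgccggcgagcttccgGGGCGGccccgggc
The AGO4 window held 66.4% G and C and no GC box, the AGO1 window 71.6% and 2 GC boxes, and the AGO3 window 80.0% and 2. Of 35116 such windows 42.6% held a GC box on either strand, and the median G and C content was 58.0%. TAZ acts on DNA through TEAD factors, whose core motif GGAATG, or CATTCC on the other strand, stood in 11.9% of all windows and in none of these 3. That says only that these letters are not in these 250 bases. No binding was measured, and the part of any of these sequences in the values above was not tested.

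The transcripts that carried each gene were examined next, with the types of GENCODE 29. A transcript was counted as complete coding where that annotation calls it protein coding with both ends of its coding sequence present. Scaled TPM of single transcripts used factors taken in the same way over transcripts. Sums and ratios over complete coding or other transcripts used the gene factors, so values of a transcript can differ slightly between them. For AGO4, the complete coding transcript ENST00000373210.3 held 73.7% ± 7.84 of the gene's TPM in HA-TAZ cells and 66.4% ± 2.38 in controls (SD, n = 3). Its scaled TPM was 5.02, 5.08 and 4.61 against 6.61, 6.52 and 6.21. The processed transcript ENST00000496257.1, of 297 bases, had 0.742, 0.691 and 1.46 against 2.78, 2.25 and 2.45. Both of these AGO4 transcripts were thus lower in every HA-TAZ library, but ENST00000496257.1 rests on few reads. The authors' deposited table implies 12.8 estimated counts for it in a typical library, with a sleuth Wald q-value of 0.472. The ratio of HA-TAZ to control means in scaled TPM was 0.761 for the complete coding transcript and 0.688 for the whole gene. The remaining AGO4 transcript, ENST00000488778.1, overlapped between the groups.

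AGO2 was carried by ENST00000220592.5, with 39.7, 41.0 and 39.7 scaled TPM in HA-TAZ libraries and 34.7, 33.3 and 33.5 in controls. This complete coding transcript was separated between the groups where the whole gene overlapped. ENST00000524328.1, a coding fragment of 316 bases, held 12.2% and 12.4% of AGO2 TPM. AGO1 had only complete coding transcripts among those with a value. ENST00000373204.4 had 5.07, 4.93 and 4.96 against 4.12, 4.11 and 4.15, and ENST00000373206.1 held the remaining 39.9% and 43.8% of the gene. AGO3 was spread over 4 coding transcripts, ENST00000246314.6, ENST00000324350.5, ENST00000373191.4 and ENST00000397828.2, with between 13.2% and 22.7% of its TPM each, and the retained introns ENST00000491443.1 and ENST00000471099.1. Of the 4 coding forms, ENST00000373191.4 was lower without overlap, with 2.60, 2.87 and 2.69 scaled TPM against 3.27, 3.03 and 3.09, and the other three overlapped.

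XPO5 split in opposite directions within the gene. Its complete coding transcript ENST00000265351.7 had 22.9, 21.1 and 22.4 scaled TPM in HA-TAZ libraries and 17.7, 18.2 and 18.8 in controls. The retained intron ENST00000450462.2 had 5.13, 5.11 and 4.81 against 6.51, 6.91 and 6.81. The level gene total of XPO5 thus held a leading transcript above its control range and this retained intron below it. Neither was called in the fit on single transcripts (limma adjusted p = 0.108 and 0.0849). Of 10558 protein-coding genes, 44.5% had complete coding transcripts higher without overlap, and 17.9% had their other transcripts lower. ENST00000398835.3, annotated as a target of nonsense-mediated decay, held 13.4% and 12.9% of the gene.

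DROSHA was carried by many transcripts. The complete coding ENST00000513349.1 held 22.5% of its TPM in HA-TAZ cells and 18.9% in controls. The coding fragment ENST00000507438.1, of 860 bases, had 11.7, 10.8 and 8.90 scaled TPM against 23.1, 15.7 and 10.3, and it alone held 23.4% ± 6.22 of the control level. Control a, the library with the highest gene total, was also the highest for this fragment. The coding fragments ENST00000512076.1 and ENST00000512302.1 held 11.6% and 11.9% of DROSHA TPM in HA-TAZ cells and 10.4% and 10.3% in controls, and both overlapped. DGCR8 was led by ENST00000351989.3, with 4.99, 4.77 and 5.45 against 3.71, 3.81 and 4.22 and no overlap. Of the lesser DGCR8 forms, the retained intron ENST00000495826.1 held 6.88% in HA-TAZ cells and 11.02% in controls and was lower in scaled TPM without overlap. The coding fragment ENST00000457069.1 and the retained introns ENST00000485802.1 and ENST00000498171.1 overlapped.

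DICER1 was divided among long coding forms, led by ENST00000343455.3 with 20.3% and 20.01% and ENST00000527414.1 with 19.3% and 17.8%. ENST00000393063.1, also complete coding, held 13.5% and 6.62%, with 4.99, 3.75 and 2.29 scaled TPM against 1.61, 2.51 and 1.66. Its groups overlapped through HA-TAZ 3 and control b (limma adjusted p = 0.183). ENST00000526495.1 held 8.35% and 10.4% and overlapped. The coding fragment ENST00000531162.1, of 607 bases, had 3.86, 4.67 and 3.63 scaled TPM against 2.42, 2.53 and 2.95, higher in every HA-TAZ library (limma adjusted p = 0.1003).

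PRKRA was led by ENST00000325748.4, with 7.57, 7.63 and 6.75 scaled TPM against 5.17, 6.90 and 5.29, an overlap through control b. Its retained intron ENST00000466165.1 held 10.9% and 13.01% and overlapped. TARBP2 had no leading form: ENST00000266987.2 held 17.2% and 18.3%, and the retained intron ENST00000549610.1 held 14.4% and 15.1%. The coding ENST00000456234.2, the retained intron ENST00000546889.1 and ENST00000549572.1, a target of nonsense-mediated decay, held between 5.92% and 11.7% of TARBP2 each and overlapped. Short fragments and retained introns thus hold part of these gene totals, and reads shared between transcripts of a gene cannot be told apart from TPM alone.

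Across the members, complete coding transcripts held a larger mean share of TPM in HA-TAZ cells for 9 of 10 genes, and AGO1 was at 100% in both groups. The groups did not overlap for DROSHA (32.02% ± 1.81 against 26.8% ± 2.27), XPO5 (47.0% ± 3.81 against 37.7% ± 1.86) and PRKRA (59.3% ± 7.44 against 46.7% ± 4.82), with an exact permutation p of 0.1 each and 0.3 after adjustment (SD, n = 3). Both identical PRKRA transcripts count as other here, and the PRKRA groups overlap where ENST00000438687.3 is left out. Without overlap, 25.9% of 10558 protein-coding genes with both kinds of transcript were higher and 3.45% lower. The median difference over the members was 5.52 percentage points, beside 2.62 over those genes, of which 72.2% had a positive difference. The direction is therefore that of protein-coding genes at large.

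**Figure D4:**
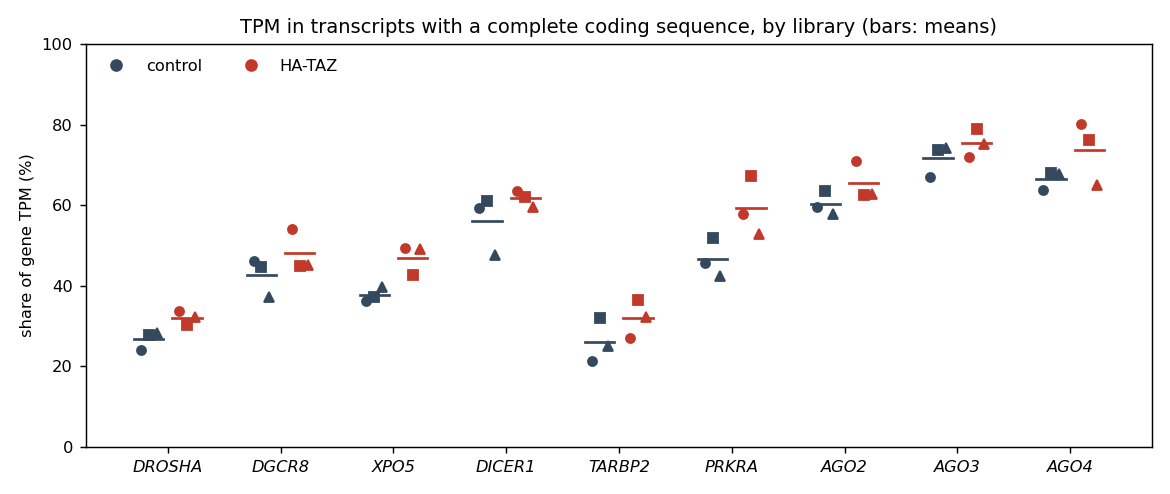
Share of each gene's TPM in transcripts with a complete coding sequence (vertical axis in percent, starting at 0) in each control (blue) and HA-TAZ (red) library, with bars at the means; AGO1, at 100% in all libraries, is left out. DROSHA, XPO5 and PRKRA do not overlap between the groups, PRKRA only with both of its identical transcripts counted.

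Counting only complete coding transcripts, AGO4 had 4.95 ± 0.281 scaled TPM in HA-TAZ cells and 6.50 ± 0.183 in controls (SD, n = 3), and was lower without overlap. AGO2 had 40.8 ± 0.690 against 34.4 ± 0.650, XPO5 22.3 ± 0.943 against 18.4 ± 0.665, DGCR8 5.59 ± 0.515 against 4.09 ± 0.223 and TARBP2 4.30 ± 0.371 against 2.65 ± 0.814, each higher without overlap. AGO1, whose value is that of the whole gene, was higher as well. DROSHA, DICER1, PRKRA and AGO3 overlapped. On this measure 44.5% of the 10558 protein-coding genes were higher without overlap and 7.68% lower, so higher members are frequent in the background too. The other transcripts of AGO4 summed to 1.79 ± 0.634 against 3.29 scaled TPM, lower without overlap. Those of XPO5 were lower without overlap too, and those of PRKRA only with both of its identical transcripts counted. Of the 10558 genes, 17.9% were lower without overlap on this measure and 10.2% higher.

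In a limma fit on single transcripts no member transcript was called at an adjusted p under 0.05, where 0.564% of all tested transcripts were. An unadjusted limma p under 0.05 was reached by 11 of 58 tested member transcripts and by 24.3% of all tested transcripts. The authors' deposited table, a Wald test by sleuth, gave values for 99 of the 112 member transcripts. It held 4 higher and 2 lower at a q-value under 0.05, where 4.08% of all its transcripts were higher and 1.6% lower, 5.68% in all. In the authors' deposited table the higher ones were the leading coding transcripts of XPO5 (0.213, SE 0.0496, natural log scale), AGO2 (0.189, SE 0.0482), AGO1 (0.209, SE 0.0566) and DGCR8 (0.279, SE 0.0812). In the authors' deposited table the leading AGO4 transcript was lower by its effect of −0.254 (SE 0.0609, q-value 0.0017), as was ENST00000532939.1 of DICER1, a minor coding fragment, at −1.07 (SE 0.229, q-value 0.0003). The AGO4 direction was thus the same in both analyses, while the calls of single transcripts differed between the tools.

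Depth was estimated from the authors' deposited table, whose mean log counts imply 696 estimated counts for TARBP2 and 9896 for DICER1 in a typical library, the ends of the range over members. Counting error alone would then be 3.79% of the summed counts of TARBP2, 1.01% of those of DICER1 and 1.93% of those of AGO4. These percentages are not the error of the gene values, which are sums of TPM. In a TPM sum a short transcript with few counts can hold a large share. For AGO4, ENST00000496257.1 held 25.6% of TPM in controls with 12.8 implied counts. The counting error of the TPM sums was not computed. Several genes overlap a member on the other strand in GENCODE 29, among them POLR1C, at 25.04 ± 1.49 TPM in HA-TAZ cells and 25.6 ± 1.90 in controls, and RF00426, at 12.5 ± 6.38 and 24.1 ± 5.54, at XPO5 (SD, n = 3). TRMT2A at DGCR8 had 13.5 ± 0.580 and 13.99 ± 0.826 TPM, and RF00019 at DROSHA 13.2 ± 5.44 and 16.7 ± 11.4. At DICER1 and PRKRA lay DICER1-AS1, at 5.64 ± 0.715 TPM in HA-TAZ cells and 9.33 ± 1.72 in controls (SD, n = 3), and AC009948.1, at 17.6 ± 0.974 and 19.4 ± 0.739. AL138787.2 at AGO3 had 2.50 ± 0.993 and 3.79 ± 0.920 TPM, and no gene overlapped AGO4. Whether the counting used strand is not given in the sources used here.

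The other genes of the pathway were taken from 6 lists of 98 genes. The lists were written with earlier results of these data known, so the counts below describe the lists and do not test them. Of these 89 passed the filter, 10 were called higher and 3 lower, 14.6% of those tested beside 7.29% of all tested genes. Protein-coding genes alone, the class of these lists, were called higher in 7.5% and lower in 2.18%. The median log2 fold change over the lists was 0.06, the same as over all protein-coding genes. None of the 10 higher calls held with TPM as deposited, where 13 list genes were called, all lower. The directions of RAN, HSP90AB1, DNAJA2, STAU1 and XRN2 turned there, to −0.035, −0.034, −0.068, −0.027 and −0.017. Leaving out 1 library left 0 to 3 list genes called.

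Most of the higher calls stood in the export, loading and chaperone list, where 6 of 16 were called higher and none lower, with a median log2 fold change of 0.20. RAN, the GTPase that XPO5 needs for its cargo, had a log2 fold change of 0.27 (−0.035 with TPM as deposited), and RANGAP1, which makes RAN hydrolyse its GTP, had 0.44. The chaperones that open Argonautes for loading were represented by HSP90AB1 at 0.27 (−0.034 with TPM as deposited), DNAJB1 at 0.47, DNAJA2 at 0.22 (−0.068 with TPM as deposited) and the HSP90 co-chaperone FKBP4 at 0.36. DNAJB1 had 70.8, 67.8 and 67.3 scaled TPM in HA-TAZ libraries and 46.4, 53.3 and 48.4 in controls, which did not overlap (limma adjusted p = 0.0211). FKBP4 had 63.5, 61.8 and 63.3 against 46.9, 51.4 and 48.2 (limma adjusted p = 0.0219).

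Of 19 tested partners of the Microprocessor, 2 were called higher and none lower, with a median of 0.07. ADAR, an enzyme that edits adenosine in double-stranded RNA, had 151, 147 and 148 scaled TPM against 117, 119 and 118, a log2 fold change of 0.33 (limma adjusted p = 0.0128). ERH, a small partner of DGCR8, had 139, 127 and 137 against 96.3, 104 and 112, a log2 fold change of 0.37 (limma adjusted p = 0.0406).

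Among 29 tested silencing effectors that act with Argonautes, only CNOT6L, a deadenylase subunit of the CCR4-NOT complex, was called, at a log2 fold change of −0.23 (limma adjusted p = 0.0469), and the median was −0.04. Of 15 tested genes of small RNA tailing and turnover, ZCCHC11, the terminal uridylyltransferase also called TUT4, fell by 0.42 on the log2 scale, with 15.4, 15.5 and 14.6 scaled TPM against 21.3, 20.6 and 20.01 (limma adjusted p = 0.0173). XRN2, a nuclear exonuclease, was called higher at 0.28 (−0.017 with TPM as deposited), and the list's median was −0.07. CNOT6L, ZCCHC11 and STAU2 were also called lower with TPM as deposited.

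Of 10 double-stranded RNA binding proteins outside the members, STAU1 was called higher at 0.26 (−0.027 with TPM as deposited) and STAU2 lower at −0.28, with a median of 0.07. These Staufen proteins bind double-stranded RNA in transport and decay of messages. STAU2 had 55.5, 58.0 and 54.2 scaled TPM in HA-TAZ libraries and 69.6, 67.3 and 67.9 in controls (limma adjusted p = 0.0282). The 4 Piwi genes, germline relatives of the Argonautes, were all below the filter and summed to between 0.320 and 0.685 TPM in any library.

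**Figure D5:**
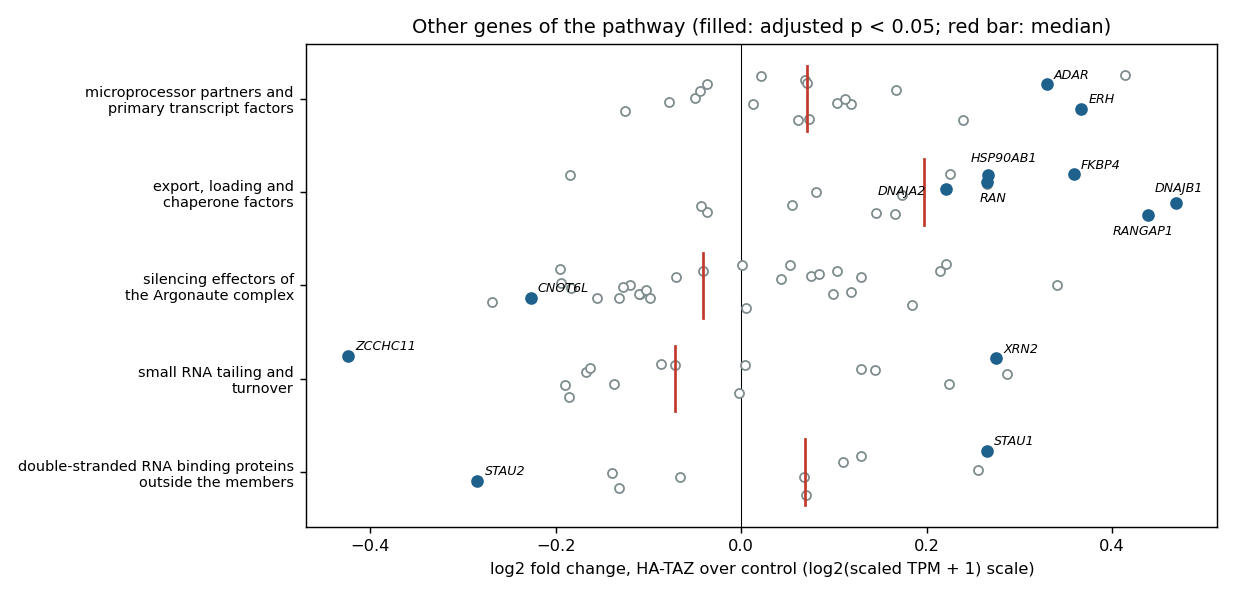
Log2 fold change, HA-TAZ over control, on the log2(scaled TPM + 1) scale (horizontal axis) of the tested genes of 5 pathway lists (rows); filled points passed a limma adjusted p of 0.05 and are named, and red bars are the medians. The export, loading and chaperone list has its median at 0.20, and the other medians lie between −0.07 and 0.07.

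The hairpin gene of the microRNA in the title, MIR590, is listed under 2 identifiers with identical values. MIR590 had 18.5, 13.99 and 12.3 TPM in HA-TAZ libraries and 23.2, 21.4 and 28.2 in controls under each identifier. The 2 were not summed here. With scaled TPM the log2 fold change of each was −0.39 (SE 0.20, limma adjusted p = 0.247), so MIR590 was not called. These values are of reads placed on the hairpin and do not tell the primary transcript, its arms or the mature microRNA apart.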

How the data were processed

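RNA of 3 HA-TAZ and 3 wild type KMS27 libraries was sequenced from ribosome-depleted total RNA. The authors deposited TPM per transcript, and the submitters' processing notes name kallisto 0.46.0 and the build GRCh37 without their roles. They also deposited sleuth 0.30.0 results per transcript, with p-values, q-values and effects and means on a natural log scale, per the file headers. The variance terms that the authors deposited beside them, scores of the sleuth model per the file headers, were not used. The annotation release and the use of strand are not given in the sources used here. FastQC 0.11.91 and MultiQC 1.92 are named for quality control in the submitters' processing notes.

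TPM are not counts, so no count model was fitted. TPM were summed per Ensembl gene with pandas 2.3.3 under Python 3.11.15, divided by median-of-ratios factors over genes above the filter, and transformed as log2(value + 1). limma 3.58.1 in R 4.3.3, with an intensity trend, tested the 22651 genes whose mean TPM was 1 or more, with Benjamini-Hochberg adjustment over all of them. The fit was tested on simulated data. Ratios and shares were tested by exact two-sided permutation over libraries with scipy 1.17.1. Gene and transcript types came from GENCODE 29, and a gene type was found for 82.5% of gene identifiers. Transcripts without a type there were counted as not complete coding. Promoter and microRNA sequences came from RefSeq, with windows for 9 of the 10 members.

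All 10 members are named, with their transcripts holding at least 10% of the gene's TPM in either group, and the called genes of each pathway list, at most the 8 with the largest change. Transcripts of the authors' calls outside this rule were chosen after their values were seen. The members and lists were chosen with earlier results of these data known. Nothing says that the 3 libraries of a group came from separate cultures, so p-values measure the spread between these libraries, which may be technical. The alternatives tried were another pseudocount, no and a stricter filter, TPM as deposited, protein-coding genes only and no trend. Sums per gene symbol and leaving out each library were tried too. The fit on protein-coding genes only divided TPM by the sum over those genes. Chosen after seeing the data were the fit on protein-coding genes with median-of-ratios factors and the PRKRA sum without 1 of 2 identical transcripts.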

Additional observations from a re-analysis of the deposited data

How the results depend on the processing

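Of 142 values of the members under other settings, 130 kept their direction and side of the threshold, 6 lost a call, 2 gained a call and 4 turned direction. The 6 lost calls were those of AGO4 when each library was left out in turn, where no member was called (0 in each of the 6 fits). Reversals came with TPM as deposited, for DGCR8 (−0.022), AGO1 (−0.11), AGO2 (−0.17), DNAJA2 (−0.068), HSP90AB1 (−0.034), RAN (−0.035), STAU1 (−0.027) and XRN2 (−0.017). There and with protein-coding genes only, 2 members were called, AGO4 with PRKRA or with DROSHA. Leaving out 1 of 2 identical PRKRA transcripts, an alternative chosen after seeing the data, turned PRKRA to 0.026 in scaled TPM and ended its call in TPM as deposited. Over all genes, 1652 were called, 1057 higher and 595 lower. Without a filter 691 were called, without the trend 758, and with TPM as deposited 3329, of which 261 were higher and 3068 lower. With protein-coding genes only 2651 were called, 906 higher and 1745 lower, and with median-of-ratios factors among those genes 2746, 1424 higher and 1322 lower. Leaving out 1 library gave 118 to 470. Of the pathway lists, 13 genes were called, and 5 without a filter, 4 without the trend, 24 with protein-coding genes only, 21 with median-of-ratios factors among those genes and 0 to 3 with 1 library left out. The causes of these differences were not tested, and the fits that leave out 1 library also hold fewer libraries. No paired analysis was possible because the columns of the control libraries cannot be tied to the replicate numbers of the sample titles. The smallest p of an exact test on 3 against 3 libraries, 0.1, limits the ratios and shares.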
